A study of Sus scrofa with 12 samples.

Results

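The enzymes that activate, convert or inactivate sex steroids and glucocorticoids inside a tissue were compared between testis and epididymis of the boar. The set was given as 10 gene names covering 5-alpha reductases, aromatases and hydroxysteroid dehydrogenases, and rows named exactly so were taken from the gene tables. Of the 30640 gene rows, 6 carried one of these names: SRD5A2, CYP19A1, HSD17B2, HSD17B4, HSD11B1 and HSD11B2. A further row, named only by the identifier ENSSSCG00000017103.4, belongs to SRD5A1 in a table that pairs identifiers with symbols. Its values are given beside those of the 6 genes, and it is not counted among them. SRD5A3, CYP19A2 and CYP19A3 are not analysed here.

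The samples were short-read RNA libraries of testis and epididymis, 5 of each, from boars of an inbred line of Banna mini-pigs, which the labels describe as adult, untreated and 12 months old at harvest. Animal numbers in the file headers recur in both tissues, so replicate 1 of testis and replicate 1 of epididymis come from the same boar. The headers give ages of 12, 12, 11, 17 and 11 months for boars 1 to 5, which differ from the labels for 3 of them. The labels do not say which part of the epididymis was taken. In a bulk sample of this kind, more RNA of a gene per cell and more cells of the type that makes it cannot be told apart.

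Steroid hormones are made in Leydig cells of the testis and are changed again in the tissues that receive them. The 5-alpha reductases turn testosterone into dihydrotestosterone, a stronger androgen, and the epididymis is known as a tissue that depends on it. Aromatase turns androgens into estrogens, and the boar testis is known for its high estrogen output. Of the hydroxysteroid dehydrogenases, HSD17B2 oxidizes testosterone and estradiol to weaker steroids, HSD17B4 is a peroxisomal enzyme of fatty acid oxidation that can also oxidize estradiol, HSD11B1 regenerates active glucocorticoid and HSD11B2 inactivates it.

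Libraries held 18715154 to 30211957 reads in testis and 17980578 to 21937263 in epididymis, so that 3 reads, the upper limit a count of 0 allows, correspond to 0.0993 to 0.167 reads per 1000000 reads of the library (CPM). These limits cover counting error only. Leydig cell and principal cell markers separated the labelled tissues. The 5 Leydig cell markers summed to 12144 to 19341 CPM in testis and 26.6 to 33.7 in epididymis. The 5 principal cell markers of the epididymis with a row summed to 68.9 to 139 CPM in testis and 13529.8 to 25884 in epididymis. Of these, CRISP1 and PATE1 had no reads in testis, and PATE1 was also low in epididymis replicates 3 and 5, at 0.866 and 0.245 CPM. The 6 Sertoli cell markers differed less, with sums of 127 to 211 CPM in testis and 61.2 to 102 in epididymis. Among them AMH, at 46.8 to 98.9 against 39.6 to 71.8 CPM, and GATA1 overlapped. Testis replicate 4 and epididymis replicate 3 stood apart from the other libraries of their tissue. The signal recognition particle RNA, which has no poly(A) tail, stood at 7888 to 9134 CPM in testis replicates 1, 2, 3 and 5, at 7.75 in testis replicate 4 and at 1 to 8.27 in the epididymis. In its level of this RNA testis replicate 4 was like the epididymis, and for the other 4 this difference in library content and the tissue cannot be told apart. Values with replicate 4 alone for testis are given where they change a call. Epididymis replicate 3 had 53.2 CPM of CRISP1 against 1382 to 2679.5 in the others, and its 4 clear cell markers summed to 29 CPM against 0 to 0.556.

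Among the 6 genes, CYP19A1 and HSD17B4 were higher in testis, SRD5A2 and HSD11B1 were higher in epididymis, and HSD11B2 was not called in either direction. HSD17B2, the sixth, fell below the filter on low counts and is described by its reads. A gene was called when its adjusted p in edgeR's quasi-likelihood test, corrected over all 17225 genes tested, was below 0.05. By this rule 36.6% of the genes tested were higher in testis and 37.8% higher in epididymis, so 4 calls among 5 tested genes is close to the background of 74.4%. The median log2 fold change, testis over epididymis, was -0.16 over the 5 tested genes and -0.07 over all genes tested. What sets the genes apart from each other is the size of the difference, which ran from near 0 for HSD11B2 to a 1074-fold and a 1493-fold difference of mean CPM for CYP19A1 and SRD5A2. The libraries of the tissues did not overlap for 3 of the 5, with CYP19A1 and HSD17B4 above in testis and SRD5A2 above in epididymis. Over all genes tested this held for 32.1% with testis above and 29.3% with epididymis above.

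**Figure D1:**
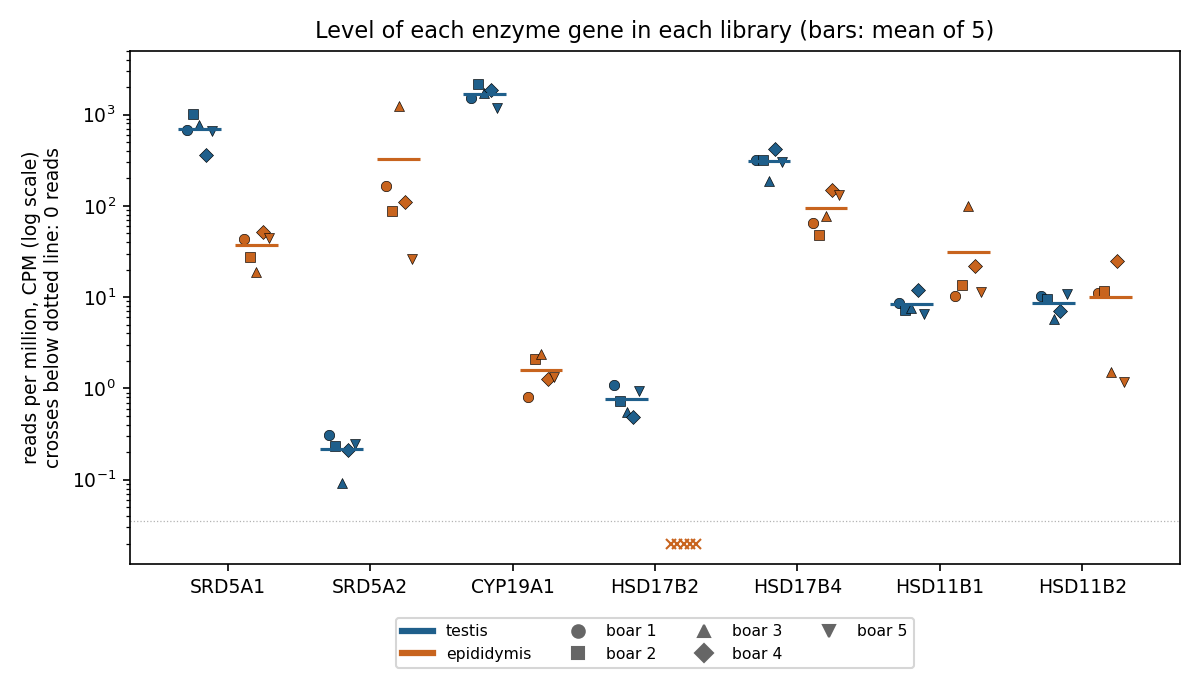
Reads per 1000000 reads (CPM, log scale) of each enzyme gene in each library, with testis in blue, epididymis in orange, 1 symbol shape per boar and bars at the mean of 5 libraries. SRD5A1, CYP19A1 and HSD17B4 lie higher in testis and SRD5A2 higher in epididymis without overlap, the HSD11B pair overlaps between tissues, and crosses mark the 5 epididymis libraries without a read of HSD17B2.

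The 5-alpha reductases differed between the tissues in opposite directions, with SRD5A2 higher in epididymis and SRD5A1 higher in testis. SRD5A2 (chromosome 3, 107840200 to 107918351, RefSeq positions on Sscrofa11.1, as for all genes here) is the isozyme known for androgen action in the male reproductive tract. It had 164, 88.5, 1240.4, 109.8 and 26.2 CPM in epididymis replicates 1 to 5. In testis it had 0.307, 0.232, 0.0926, 0.214 and 0.246 CPM, from 25 reads over the 5 libraries together. Every epididymis library was thus above every testis library, although the epididymis libraries themselves spread over a 47.3-fold range, with replicate 3 far above and replicate 5 below the other replicates. The log2 fold change, testis over epididymis, was -10.45 ± 1.24 (approximate SE, n = 5 libraries per tissue; edgeR quasi-likelihood adjusted p = 1.2e-05). Without epididymis replicate 3 it was -8.76 and remained called. With testis replicate 4 alone for its tissue it was -10.38 and missed the threshold (edgeR adjusted p = 0.0548).

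SRD5A1 (chromosome 16, 75309830 to 75335438), a 5-alpha reductase expressed in many tissues, showed the opposite pattern. Its testis libraries 1 to 5 had 679, 1012, 775, 359 and 655 CPM. Its epididymis libraries had 43.7, 27.3, 19, 52.2 and 45 CPM. The tissues did not overlap, with testis replicate 4 the lowest of its tissue and epididymis replicate 3 the lowest of the other. The log2 fold change was 4.25 ± 0.37 (approximate SE, n = 5 per tissue; edgeR adjusted p = 1.2e-06), an 18.6-fold difference of the mean CPM. With testis replicate 4 alone for its tissue it was 3.36 and still called (edgeR adjusted p = 0.0026).

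Levels of different genes were compared per length, as transcripts per 1000000 (TPM), computed from the counts and the gene lengths in the files. In testis SRD5A1 had 227 to 666 TPM and SRD5A2 0.0835 to 0.28, so that SRD5A1 stood 1211 to 6045 times above SRD5A2 within the same library. In epididymis the order turned in 4 of 5 libraries. SRD5A2 had 133, 66.3, 1015 and 103 TPM in replicates 1 to 4 against 25.6, 14.7, 11.2 and 35.5 TPM of SRD5A1, whereas in replicate 5 the levels were 22.9 and 28.4 TPM. The log2 ratio of SRD5A1 to SRD5A2 (TPM plus 0.1) was 10.54 ± 0.71 in testis against -2.45 ± 2.49 in epididymis (SD, n = 5 each), without overlap. The summed level of both genes did overlap, at 446, 666, 505, 227 and 436 TPM in testis and 159, 81, 1026, 139 and 51.3 TPM in epididymis. In this sum epididymis replicate 3 was above every testis library and the other 4 epididymis libraries were below every testis library.

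**Figure D2:**
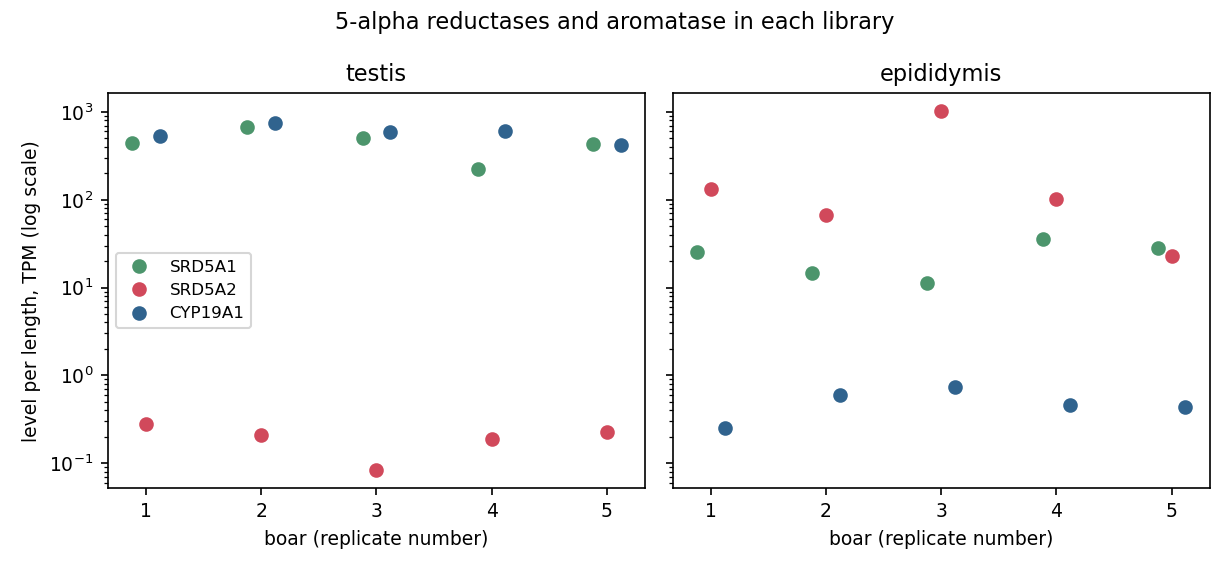
Level per length (TPM, log scale) of SRD5A1, SRD5A2 and CYP19A1 in each testis library (left) and each epididymis library (right), by boar. In testis SRD5A1 and CYP19A1 lie at 227 to 757 TPM and SRD5A2 below 1 TPM in every library, and in epididymis SRD5A2 lies above SRD5A1 in boars 1 to 4 with 1015 TPM in boar 3.

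Epididymis replicate 3, which had the most SRD5A2, also differed in cell type markers, and their part in its SRD5A2 level was not tested. Its 4 fibroblast markers summed to 3890.0 CPM against 1129.7 to 2898, and its 6 germ cell markers to 389 CPM against 17.4 to 60.1 in the others, where testis had 9360.1 to 11699. Replicate 1, second for SRD5A2, had the lowest of both sums. Basal cell markers were mixed in replicate 3, with KRT14 at 126 CPM against 600.4 to 864 and TP63 at 96.3 against 12.9 to 84.6. Principal cell markers did not move as one, since EPPIN and CRISP1 were lowest in replicate 3 and NPC2, at 12499 CPM, was second to replicate 4. The genes whose log2 CPM pattern over the 10 libraries lay nearest to that of SRD5A2, out of 13816 other genes with a symbol, were MCCD1, LCN10 and MUC15. Their root mean square differences were 0.74, 0.75 and 0.78 log2 units, after each gene's mean was subtracted. LCN10, an epididymal lipocalin, stood at 145 ± 259 CPM in epididymis (SD, n = 5) against 0.202 ± 0.134. For SRD5A1 the nearest were CEP85, PNLIPRP3 and LYPD4, at 0.36 to 0.42 log2 units. These likenesses are mostly the difference between tissues that the genes share.

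Aromatase mRNA was abundant in testis and low in epididymis, though detected in every library. CYP19A1 (chromosome 1, 120596235 to 120627806) had 1519, 2179, 1725, 1844 and 1185 CPM in testis replicates 1 to 5. In epididymis it had 0.815, 2.08, 2.37, 1.28 and 1.32 CPM, from 16 to 52 reads per library. The tissues did not overlap, and testis replicate 4, which stood apart in RNA content, was within the range of the other testis libraries for this gene. The log2 fold change was 10.09 ± 0.42 (approximate SE, n = 5 per tissue; edgeR adjusted p = 9.7e-09), a 1074-fold difference of the mean CPM. It stayed between 9.95 and 10.30 under the alternatives that changed the filter, the scaling, the libraries, the tool or the pairing.

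Per length, CYP19A1 had 416 to 757 TPM in testis, where it ranked between 137 and 306 among the 30640 gene rows. In epididymis it had 0.252 to 0.739 TPM. Set against both 5-alpha reductases, which compete with it for testosterone, CYP19A1 had 1.18, 1.14, 1.17, 2.71 and 0.954 times their summed TPM in testis replicates 1 to 5. The ratio was therefore near 1 in 4 testis libraries and higher in replicate 4, whose SRD5A1 level was the lowest. This nearness to 1 depends on the counted lengths. The mean log2 ratio in testis was 0.40 per length and 1.33 from CPM without division by length. In epididymis the same ratio was 0.00072 to 0.00857. The pattern of CYP19A1 over the 10 libraries lay nearest to those of CYP17A1, RDH12 and GATA4, at 0.36, 0.40 and 0.47 log2 units. CYP17A1, which makes the androgens that aromatase uses, stood at 6549 ± 1558 CPM against 4.47 ± 1.08 (SD, testis first). GATA4, a transcription factor of gonadal somatic cells, stood at 156 ± 30.3 against 0.0947 ± 0.127 CPM.

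The aromatase value carries a limit of the annotation. The pig has several aromatase genes, and RefSeq places CYP19A3 (120476890 to 120556103) and CYP19A2 (120652172 to 120695899) on either side of CYP19A1 on chromosome 1. The single row named CYP19A1 has a counted length of 6953 bases, and no source used here says how reads shared by near-identical copies were counted. The value is therefore that of the row, and its division among the copies is uncertain.

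The 17-beta-hydroxysteroid dehydrogenases of the set were both higher in testis, at very different levels. HSD17B4 (chromosome 2, 123313445 to 123401386) had 314, 319, 186, 419 and 302 CPM in testis and 65.1, 47.4, 78, 149 and 132 CPM in epididymis. The lowest testis library was above the highest epididymis library, with testis replicate 3 and epididymis replicate 4 closest to each other. Its log2 fold change was 1.73 ± 0.32 (approximate SE, n = 5 per tissue; edgeR adjusted p = 3.7e-04). Within boars the testis level was 4.83, 6.74, 2.38, 2.82 and 2.28 times that of the epididymis. The genes nearest in pattern were MTFR1, LTN1 and TCP1, at 0.24 to 0.25 log2 units.

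HSD17B2 (chromosome 6, 6296429 to 6360434) was at the edge of detection. It had 21, 22, 12, 9 and 23 reads in testis replicates 1 to 5, or 0.481 to 1.08 CPM, and 0 reads in each epididymis library. The 87 testis reads correspond to 0.76 CPM over the tissue, and 3 reads over all epididymis libraries to 0.0305 CPM, a ratio of 24.9. This ratio allows for counting error in epididymis only, not for that in testis or for the spread between boars. HSD17B2 was removed by the filter, which asked for 0.499 CPM in 5 libraries, because testis replicate 4 had 0.481. Without the filter it was called higher in testis (edgeR adjusted p = 4.8e-05). Per length HSD17B2 had 0.403 to 0.937 TPM in testis against 102 to 223 TPM of HSD17B4. HSD17B3, the testis enzyme that reduces androstenedione to testosterone and a gene singled out here after its values were seen, stood at 21.3 ± 2.96 CPM in testis against 0.344 ± 0.183 in the duct (SD, n = 5 each). HSD17B1, singled out likewise, went the other way, at 0.985 ± 0.179 against 5.42 ± 3.1 CPM (log2 fold change -2.44, edgeR adjusted p = 1.3e-04). HSD17B6, HSD17B7, HSD17B8, HSD17B11 and HSD17B12 were not called in either direction. HSD17B6 and HSD17B11, with edgeR adjusted p = 0.0621 and 0.0535, were called higher in testis with DESeq2 or its size factors.

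**Figure D3:**
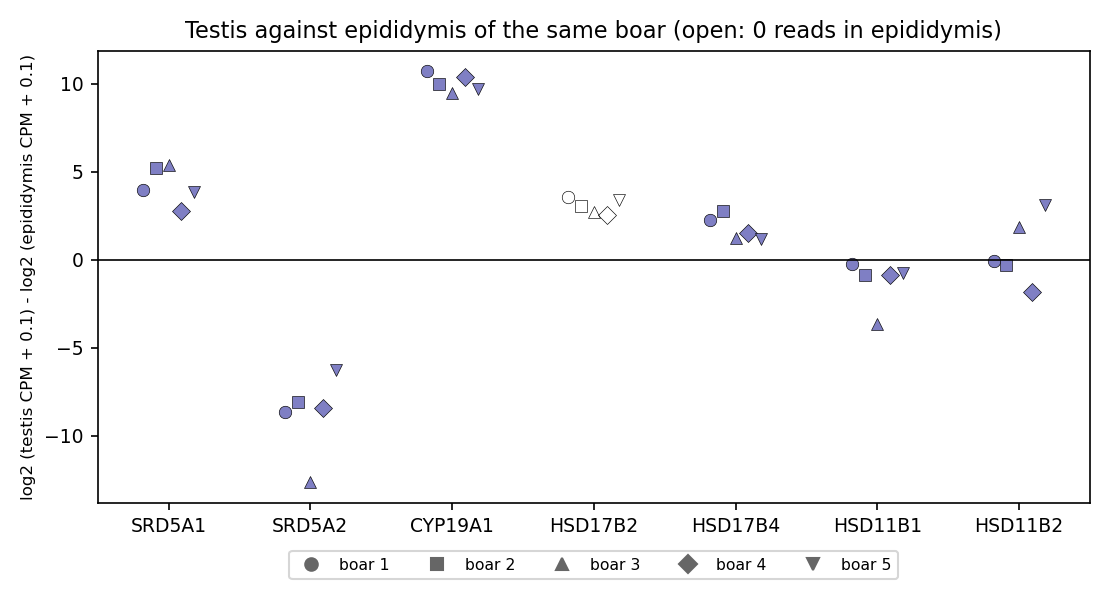
Difference of log2 (CPM + 0.1) between testis and epididymis of the same boar for each enzyme gene, 1 symbol per boar. All 5 boars lie on the same side of 0 for each gene except HSD11B2, which lies above 0 in boars 3 and 5 and below it in boars 1, 2 and 4.

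The glucocorticoid enzymes had 7.14 to 17.3 TPM in testis and 1.4 to 132 TPM in epididymis, and varied more among epididymis libraries than between tissues. HSD11B1 (chromosome 9, 133231451 to 133278396) had 8.66, 7.28, 7.64, 12.1 and 6.57 CPM in testis replicates 1 to 5. In epididymis it had 10.2, 13.5, 98.8, 22.1 and 11.3 CPM. The tissues overlapped, because testis replicate 4 exceeded epididymis replicates 1 and 5, but in each boar the epididymis level was the higher, by 1.18, 1.86, 12.9, 1.82 and 1.72 times. The log2 fold change was -1.84 ± 0.59 (approximate SE, n = 5 per tissue; edgeR adjusted p = 0.0142). It was -0.75 without epididymis replicate 3, where it was still called, and -0.53 without epididymis replicates 3 and 4, where it was not (edgeR adjusted p = 0.0744). It was also not called with testis replicate 4 alone for its tissue (log2 -1.22, edgeR adjusted p = 0.513). In a fit with the boar as a block it was called, at -1.20 (edgeR adjusted p = 0.0449).

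HSD11B2 (chromosome 6, 28084087 to 28089256) had 10.4, 9.47, 5.78, 7 and 10.9 CPM in testis. In epididymis it had 11, 11.8, 1.5, 24.8 and 1.18 CPM. Testis libraries thus lay close together, while epididymis replicates 3 and 5 were below all of them, replicates 1 and 2 just above and replicate 4 well above. The log2 fold change was -0.16 ± 0.66 (approximate SE, n = 5 per tissue; edgeR adjusted p = 0.836), and its sign changed with the libraries left out. No difference was detectable beyond the spread of the epididymis libraries, with an SD of 9.66 around a mean of 10.1 CPM.

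Within a library, the ratio of HSD11B1 to HSD11B2 per length was near 1 in most samples. It was 0.99, 0.915, 1.57, 2.06 and 0.715 in testis replicates 1 to 5. In epididymis it was 1.11, 1.36, 78.1, 1.06 and 11.4. Replicates 3 and 5 differed from the rest in different ways. Replicate 3 had both the most HSD11B1, 132 TPM, and little HSD11B2, 1.69 TPM, whereas replicate 5 had HSD11B1 within the range of the other replicates, 16.1 TPM, and 1.4 TPM of HSD11B2. The log2 ratio was 0.21 ± 0.61 in testis against 2.06 ± 2.70 in epididymis (SD, n = 5 each), which overlap. The nearest patterns to HSD11B1 were those of BMP6, ARMCX4 and GPR75, at 0.30 to 0.35 log2 units, and to HSD11B2 those of RBFOX3, VWCE and FAM163A, at 0.58 to 0.67.

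**Figure D4:**
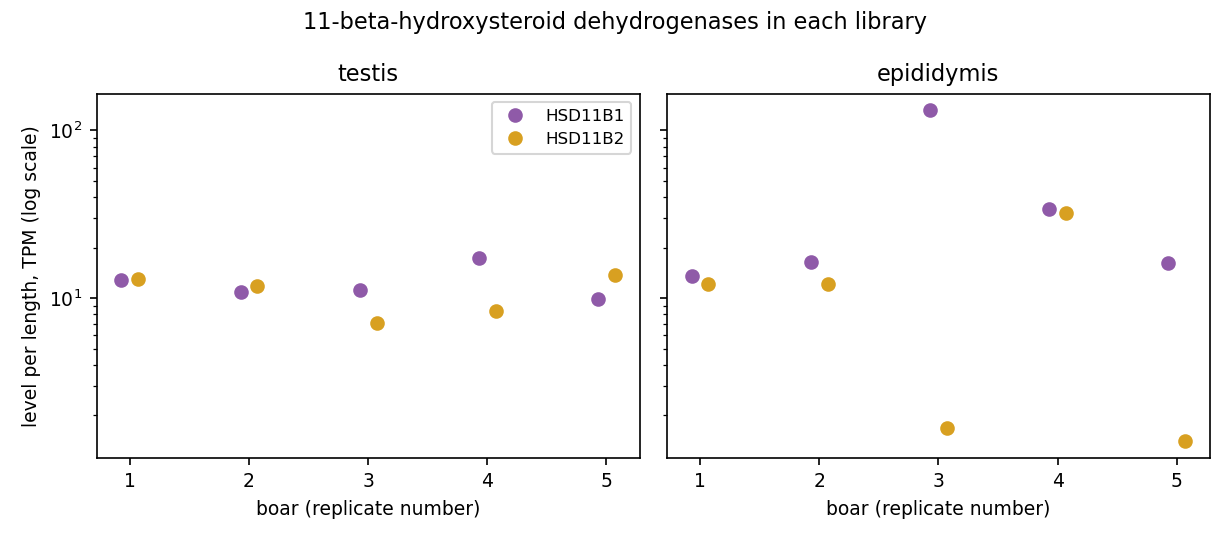
Level per length (TPM, log scale) of HSD11B1 and HSD11B2 in each testis library (left) and each epididymis library (right), by boar. The genes lie close together in all testis libraries and in epididymis libraries 1, 2 and 4, and HSD11B1 lies 78.1 and 11.4 times above HSD11B2 in epididymis libraries 3 and 5.

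The markers of adipocytes and of fibroblasts, cell types in which HSD11B1 is known to be active, moved in part with it, and their role in its level was not tested. The 4 adipocyte markers summed to 55.1 CPM in epididymis replicate 3, 14.8 in replicate 4 and 0.588 to 1.99 in the others. Among the epididymis libraries HSD11B1 was also highest in replicate 3 and next highest in replicate 4. In testis, where HSD11B1 was lower, they summed to 57.8 to 66.7 CPM, above every epididymis library. Most of this was LEP, at 42.6 to 54 CPM. ADIPOQ was at 9.73 to 14.4 CPM in testis, against 24.6 in epididymis replicate 3, 6.51 in replicate 4 and 0 to 0.0509 in the others. PLIN1 was at 0.695 to 2.27 CPM in testis against 15.9 in epididymis replicate 3, and FABP4 at 0 to 0.107 against 13.4. The sum of the fibroblast markers was highest in epididymis replicate 3 and next highest in replicate 5, where HSD11B1 was not raised. These markers did not move as one. COL1A1 and COL1A2 were highest in replicate 3 and next in replicate 5, and DCN was highest in replicate 5. PDGFRA had 105 CPM in replicate 3, 55.2 in replicate 4 and 13.9 to 18.9 in the others, against 24.3 to 41.2 in testis.

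Of 6 listed receptors for steroids 5 were tested, and edgeR called 1 of them higher in epididymis and 0 higher in testis, also 0 at an unadjusted p below 0.05. Among all genes tested, 37.8% were called higher in epididymis and 36.6% in testis. In testis 1 receptor was called with DESeq2, with its size factors and without the filter, and 2 without epididymis replicates 3 and 4. The median log2 fold change of the 5 was 0.31. GPER1, a membrane estrogen receptor, was higher in epididymis, at 2.32 ± 0.922 CPM against 0.666 ± 0.444 (log2 fold change -1.78 ± 0.48, edgeR adjusted p = 0.00483). With testis replicate 4 alone for its tissue the log2 fold change was larger, -2.73, and was not called (edgeR adjusted p = 0.0613). ESR1, the main estrogen receptor of the duct, was at 8.84 ± 0.903 CPM in testis against 6.76 ± 1.85 (log2 fold change 0.41 ± 0.23, edgeR adjusted p = 0.12), and was called higher in testis with DESeq2 (log2 0.54, adjusted p = 0.0206) and with its size factors in edgeR (log2 0.54, adjusted p = 0.048). ESR2 was at most 0.74 CPM in any library. NR3C1, the glucocorticoid receptor, was at 31 ± 3.06 CPM in testis against 32.3 ± 19.6 (log2 fold change -0.01 ± 0.35, edgeR adjusted p = 0.98). NR3C2 and PGR, the mineralocorticoid and progesterone receptors, had 8.98 ± 1.77 against 7.44 ± 2.76 and 2.44 ± 0.274 against 1.36 ± 0.905 CPM, and neither was called.

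Other enzymes of local steroid metabolism went both ways. Of 27 listed, 19 had a row and 17 were tested. Of the 17, 6 were higher in testis (8 with DESeq2 or its size factors) and 5 in epididymis. Their median log2 fold change was -0.23. The shares over all genes tested were 36.6% higher in testis and 37.8% higher in epididymis. Besides CYP17A1, those higher in testis included AKR1C2, a reductase of ketosteroids, with 387 ± 245 against 13.9 ± 8.63 CPM, and SULT2A1, which sulfates steroids, with 225 ± 55.6 against 2.11 ± 3.02. The SULT2A1 mean in epididymis rests mainly on replicate 3, with 6.97 CPM. The log2 fold change was 6.78 with all libraries, 8.03 without that library and 10.56 without epididymis replicates 3 and 4. The AKR1C2 row has a counted length of 21103 bases, so it may hold reads of related copies. Higher in epididymis were SULT1E1, the estrogen sulfotransferase, with 20 ± 24.3 against 0.124 ± 0.0648 CPM, DHRS11, a reductase of ketosteroids, with 93 ± 24.1 against 41.8 ± 7.76, and AKR1D1, the 5-beta reductase, with 12 ± 4.8 against 2.43 ± 1.29. SULT1E1 was highest in epididymis replicate 3, at 61.4 CPM, as was SRD5A2. Its call was lost with testis replicate 4 alone for its tissue (log2 -6.76, edgeR adjusted p = 0.0716). That single-library comparison left 2 of these enzymes called higher in epididymis, and leaving testis replicate 4 out gave 8.

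Of 9 electron and cofactor suppliers of the enzymes tested, 5 were called higher in testis and 1 in epididymis, with a median log2 fold change of 1.26. Over all genes tested 36.6% were called higher in testis and 37.8% in epididymis. POR, the reductase that passes electrons to aromatase and other P450 enzymes, was at 624 ± 168 CPM in testis against 112 ± 34.9 (log2 fold change 2.49 ± 0.31, edgeR adjusted p = 1.6e-05). CYB5A and CYB5R3, cytochrome b5 and its reductase, had 894 ± 637 against 237 ± 86.5 and 669 ± 30.8 against 129.6 ± 64.6 CPM. The CYB5A mean rests partly on testis replicate 4, with 2024 CPM. SLC37A4, which carries glucose 6-phosphate into the endoplasmic reticulum, where H6PD uses it to supply HSD11B1 with NADPH, was higher in epididymis, with 208 ± 66.4 against 66.8 ± 7.89 CPM. H6PD itself, at 70 ± 23.4 CPM in testis against 83.5 ± 16.8, was not called (edgeR adjusted p = 0.463).

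HSD17B4 differed in direction from most genes of the peroxisomal pathway in which it works. Of 12 tested genes of peroxisomal beta-oxidation, 8 were higher in epididymis and 1 in testis (2 with DESeq2 or its size factors). Over all genes tested the shares were 37.8% and 36.6%. The median log2 fold change of the 12 was -2.00, whereas HSD17B4 was at 1.73. Higher in testis with it was ACOT8, a thioesterase, with 48.8 ± 4.99 against 19.7 ± 3.4 CPM. Higher in epididymis were SCP2, a thiolase and lipid carrier, with 258 ± 95.5 against 57.1 ± 24.7 CPM, PEX5, the import receptor of peroxisomal proteins, with 207 ± 19.8 against 30.9 ± 3.15, and EHHADH, the L-bifunctional counterpart of HSD17B4, with 115 ± 73.8 against 28 ± 5.93. With testis replicate 4 alone for its tissue 3 genes of the list were called higher in epididymis, and SCP2 and EHHADH were not called (edgeR adjusted p = 0.134 and 0.183).

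The list around SRD5A3, whose known role is the reduction of polyprenol to dolichol for protein glycosylation, is given without that gene. Of 9 listed genes of dolichol and polyprenol synthesis and use, 7 were tested, with 3 higher in epididymis, 1 in testis and a median log2 fold change of -0.04. Over all genes tested the shares were 37.8% and 36.6%. NUS1 and DHDDS, which together form the chain-building enzyme, had 68.7 ± 35.9 against 18 ± 6.34 and 3.74 ± 1.1 against 1.44 ± 0.405 CPM, higher in epididymis, as did ALG2, a mannosyltransferase, with 83.2 ± 35.2 against 9.14 ± 3.66. DOLK, dolichol kinase, was higher in testis, with 27.8 ± 5.91 against 14.4 ± 5.14 CPM. None of these 4 calls held with testis replicate 4 alone for its tissue (edgeR adjusted p = 0.0526 to 0.562).

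**Figure D5:**
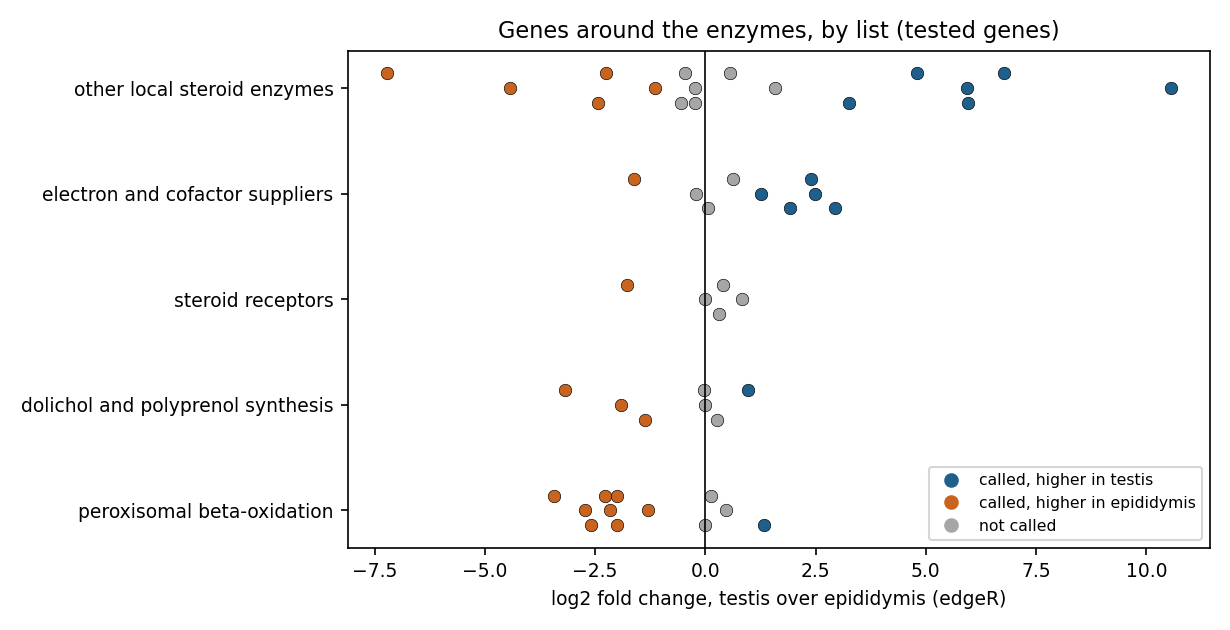
Log2 fold change, testis over epididymis, of the tested genes in each of the 5 lists around the enzymes, with called genes in blue (higher in testis) or orange (higher in epididymis) and others in grey. Peroxisomal genes lie mostly on the epididymis side and electron suppliers mostly on the testis side, while the steroid enzymes spread to both sides.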

How the data were processed

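The deposited tables, 1 per library, hold raw counts of reads by gene, with gene lengths per the file headers. Per the submitters' processing notes, the authors used cutadapt 3.0, STAR and featureCounts of Subread on the build Sscrofa11.1. How multi-mapping reads were treated, the strand setting and the annotation release were not given in the sources used here. Of 15226 rows named by Ensembl identifiers, 810 were given a symbol from a table of gene names. The members, lists and tests were chosen with earlier results of these data known.

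All genes were fitted together with R 4.3.3 and edgeR 4.0.16: filterByExpr, TMM factors, the robust quasi-likelihood test with tissue as the only term and Benjamini-Hochberg adjustment. The approximate SE is the log2 fold change before shrinkage, divided by the square root of F. The script was tested on simulated data. CPM is the count per 1000000 reads. Members were all named, as were all receptors, the 3 most abundant called genes per direction of each other list and the 3 nearest patterns (log2 CPM with 2 reads added). No 2 libraries of a tissue agreed within sampling noise (lowest chi-square per degree of freedom 9.525). Alternatives were DESeq2 1.42.0, its size factors, no composition factors, no filter, the boar as a block, and libraries left out. The replicate numbers pair the samples because the headers give both tissues the same animal. The deviations of the 2 tissues of a boar from their group means correlated at 0.009 to 0.085 across 17407 genes. The highest correlation was with the epididymis library of the same number for boars 2 and 5, and of another number for boars 1, 3 and 4. Correlations this low cannot decide the pairing, which rests on the headers. The long-read samples were not used here. A few genes of the lists are not reported here.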

Additional observations from a re-analysis of the deposited data

Results flagged for a closer look

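In groups of 5 libraries, a value was singled out where its gap to the nearest other library exceeded 0.71 of the whole range. Of 22 groups checked, 3 had such a value. The cutoff singles out about 1 in 20 groups by chance if values are normally distributed. The gene values were CPM without logarithm, and groups share genes and libraries, so 3 of 22 is not a test against that rate. Epididymis replicate 3 had 1240.4 CPM of SRD5A2, against 26.2 to 164 in the other epididymis libraries. The same library had 98.8 CPM of HSD11B1, against 10.2 to 22.1. Testis replicate 4 had a log2 ratio of CYP19A1 to the sum of SRD5A1 and SRD5A2 of 1.44, against -0.07 to 0.24 in the other testis libraries.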

How the results depend on the processing

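CYP19A1, HSD17B4 and SRD5A1 kept their direction and call under all 17 alternatives, and the 2 members called higher in testis were 2 or 3 in each. The count of 3 includes HSD17B2, which entered the test without the filter, without testis replicate 4, without any epididymis library and without epididymis replicates 3 and 4. The members higher in epididymis numbered 2 with each library left out in turn, 1 without epididymis replicates 3 and 4 and 0 with testis replicate 4 alone for its tissue, where SRD5A2 and HSD11B1 had the same direction and edgeR gave 1 (SRD5A2) at an unadjusted p below 0.05. That fit compares libraries alike in their level of signal recognition particle RNA, but takes the spread of its single testis library from the epididymis. Of 18896 genes it tested, 2145 were called higher in epididymis, against 6506 of 17225. With the replicate block, pairing the tissues of a boar, HSD11B2 was at 0.52 (log2), against -0.16, and NR3C1 at 0.19, against -0.01, neither called, and no member's call changed. HSD11B2 was at 0.07 without epididymis replicates 3 and 4 and at -0.47 to 0.41 with single libraries left out. NR3C1 was at -0.22 to 0.22 with single libraries left out, 0.12 with DESeq2 and with its size factors, 0.23 with testis replicate 4 alone and 0.69 without epididymis replicates 3 and 4 (edgeR adjusted p = 0.0263, called). NR3C2 was at -0.24 with testis replicate 4 alone, against 0.31. The mean log2 ratio of HSD11B1 to HSD11B2 in testis was -0.04 without division by length, against 0.21. The causes were not tested. At these depths HSD17B2 in epididymis, SRD5A2 in testis and CYP19A1 in epididymis rest on few reads.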
